A study of Mus musculus with 6 samples.

Results

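Amino acid transporters carry amino acids across the plasma membrane, and 9 of their genes were examined here in mouse CD8+ T cells: Slc7a5, Slc3a2, Slc7a6, Slc7a11, Slc7a1, Slc1a4, Slc1a5, Slc38a1 and Slc38a2. They were chosen by symbol, with earlier results of these data known, and each was found once among the 25638 genes of the deposited expression table. The cells were wild-type OT-I cells, whose T cell receptor transgene recognises a peptide of ovalbumin, and all groups received this peptide (OVA257-264) for 48 hours. The vehicle group had no added myeloid cells. The TAN group was cultured with CD11b+ Ly6G+ cells of low Ly6C, and the TAMo group with CD11b+ Ly6G- cells of high Ly6C, both sorted from spleens of mice bearing LLC (Lewis lung carcinoma) tumours. The T cells were purified again before RNA was taken, with 2 libraries per group. The labels state no age, and leave unsaid if myeloid donors were pooled and if a group's libraries had cultures of their own. The p-values therefore set a difference only against a spread between these libraries, shared by the groups and moderated over genes. That spread may be technical.

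A T cell that is activated through its receptor grows and divides, and takes up far more amino acids than a resting one. Slc7a5 encodes LAT1, which imports leucine and other large neutral amino acids, and works only as a dimer with the heavy chain CD98, encoded by Slc3a2. Receptor signalling and the factor Myc raise transporter genes in activated T cells, leucine brought in by LAT1 sustains the growth kinase complex mTORC1, and ATF4 raises several of the same genes when amino acids are scarce. Slc1a5 encodes ASCT2, a sodium-dependent exchanger of glutamine and other neutral amino acids, and Slc7a1 encodes CAT1, an importer of arginine and lysine.

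The unit is FPKM, which divides a gene's reads by its length and by the library's total, so that levels can be set side by side between genes within a library. The gene lengths used are unstated, so the order of genes, shares and ratios between genes depend on an unknown gene model. Merged exons run from 3529 bases for Slc3a2 to 17236 for Slc38a1. Steps between low values corresponded to 41.8 to 45.4 M counted reads per library, and 98.8% of low read numbers were even in TAMo replicate 1, against 60.2% to 63.6% in the other 5 libraries, which leaves its depth uncertain. Transcripts of the mitochondrial genome made up 8.07% to 8.34% of all FPKM in the vehicle and TAN libraries, and 1.20% and 1.32% in the TAMo libraries. In bulk RNA, fewer cells of a type and less RNA per cell cannot be told apart. The 10 T cell markers summed to 2256 and 2289 FPKM with vehicle, 2235 and 2259 with TAN, and 2387 and 2374 with TAMo, so the labelled cell type showed its markers in each library. The even sum held members that moved in opposite directions with TAMo, 6 higher and 4 lower than vehicle at a limma adjusted p under 0.05: Cd5 was 3.25-fold higher, Cd2 was 3.79-fold lower, and Cd8a fell by 36.1%. The smallest of these, Cd8b1, had a log2 change of -0.067, which turned to 0.030 on rescaling without mitochondrial transcripts. All 14 neutrophil markers stayed under 1 FPKM in every library, with S100a8 and S100a9 at 0 throughout, and their sums were 0.0615 and 0.0492 with vehicle, 0.0739 and 0.140 with TAN, and 0.335 and 0.584 with TAMo. Of 15 monocyte and macrophage markers, 12 stayed under 1 FPKM, with C1qa, C1qb and C1qc at 0. Their sums were 32.6 and 33.0 FPKM with vehicle, 25.2 and 25.4 with TAN, and 11.6 and 14.6 with TAMo. Ly6c2, which activated CD8 T cells also express, made up most of the sum with vehicle (29.3 and 30.3 FPKM) and TAN (22.1 and 23.4 FPKM), but 4.385 and 3.64 FPKM with TAMo, where Cd14 and Cd68 made up the larger part. Cd14 and Cd68 lay higher with TAMo: Cd14 had 0.0852 and 0.0563 FPKM with vehicle and 2.85 and 3.18 FPKM with TAMo, and Cd68 had 2.95 and 2.35 FPKM with vehicle and 3.63 and 7.06 FPKM with TAMo. The 4 B cell markers summed to 4.58 to 7.47 FPKM and the 5 dendritic cell markers to 1.21 to 1.77 FPKM over the 6 libraries. The part of these cells in the transporter values was not tested.

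The levels set the genes far apart. With vehicle, Slc3a2 stood at 345.3 FPKM and Slc1a5 at 343.1 FPKM, and the libraries of these 2 genes overlapped. Slc7a5 followed with 147 FPKM and Slc7a1 with 117 FPKM, then Slc7a6, Slc38a2 and Slc38a1 with 58.8, 55.3 and 44.6 FPKM. Slc1a4 reached 10.6 FPKM, and Slc7a11 only 0.189 FPKM. With TAN the order was the same except that Slc38a2 (54.4 FPKM) and Slc7a6 (54.1 FPKM) overlapped, and Slc1a5 at 269.5 FPKM lay below Slc3a2 at 322 FPKM without overlap. With TAMo the order changed: Slc3a2 at 319 FPKM was followed by Slc7a1 at 159, Slc1a5 at 129, Slc38a1 at 59.2, Slc7a6 at 56.3 and Slc38a2 at 34.5 FPKM. Slc7a5 came only then, with 25.5 FPKM, before Slc1a4 with 4.50 and Slc7a11 with 0.0260 FPKM. Slc7a5 ranked 637th of all genes with vehicle, 654th with TAN and 3997th with TAMo.

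**Figure D1:**
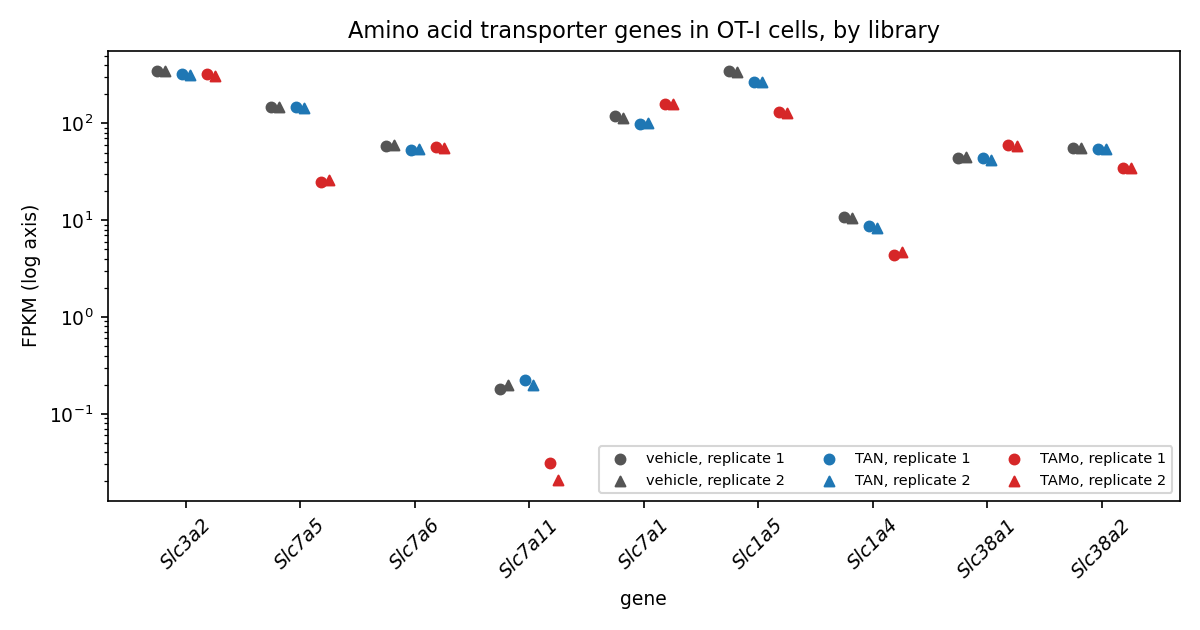
FPKM on a log axis for each of the 9 genes, with 1 point per library (circle, replicate 1; triangle, replicate 2), grey for vehicle, blue for TAN and red for TAMo. The red points of Slc7a5 lie at 24.9 and 26.1 FPKM, under 143 to 148 FPKM in the other libraries, while those of Slc3a2 stay near the rest, and those of Slc7a1 and Slc38a1 lie above.

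Upstream sequence was looked at because several of these genes are known targets of ATF4, which binds C/EBP-ATF response elements. RefSeq promoters on GRCm38.p6, from 250 bases before the start of the gene to 50 after it, were matched for 6 of the 9 genes: Slc3a2, Slc7a6, Slc7a11, Slc7a1, Slc1a4 and Slc38a2. The letters TGATGNAA, searched on both strands, were found in those of Slc7a11 and Slc1a4, and in 3.97% of the 32851 promoters in the table. The promoter of Slc7a11 holds them at 66 to 59 bases before the start and, on the opposite strand, at 47 to 40 bases before it. That of Slc1a4 holds them on the opposite strand, from 4 bases before the start to 3 after it. Both stretches are on the minus strand and are printed 5′ to 3′ along the gene, with the matches in capitals:
Slc7a11, chr3:50443638-50443694: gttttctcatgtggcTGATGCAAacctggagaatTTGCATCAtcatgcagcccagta
Slc1a4, chr11:20332695-20332732: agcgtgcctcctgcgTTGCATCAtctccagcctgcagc
Both genes with the match were lower with TAMo, though Slc7a11 was too low for a test, and 40.7% of all genes tested were called lower there. Slc7a5 and Slc1a5, which also fell, and Slc38a1, which rose, could not be searched. A link between the letters and the changes was not tested. Of the searched genes without it in this window, Slc3a2 and Slc38a2 were called lower with TAMo, Slc7a1 was called higher, and Slc7a6 did not pass. A gene without the letters in this short window may hold them elsewhere, which was not searched. The antioxidant response letters TGACNNNGC, a motif of the factor NRF2, occurred in the promoters of Slc7a1, Slc7a6 and Slc38a2 and in 12.4% of all promoters, and the E-box CACGTG, which Myc binds, in none of the 6 genes and in 7.15% of all promoters. A match is a description of letters and no evidence of binding.

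The comparison of TAN with vehicle asked how co-culture with the Ly6G+ cells moved these genes. Small falls were seen in 4 genes and a rise in none, led by the glutamine exchanger gene Slc1a5 (21.4% lower), its relative Slc1a4 and the arginine importer gene Slc7a1, while Slc7a5 did not pass. Slc7a11, with less than 1 FPKM in every library, was below the level needed for a test, so 8 of the 9 were tested. Among all 10727 genes tested, 20.3% were called at an adjusted p under 0.05, 9.37% higher and 11.0% lower. The 8 tested members had a median log2 change of -0.11, beside -0.0050 over all genes tested. The calls rested on all 4 libraries: without any 1 vehicle or TAN library only Slc1a5 and Slc7a1 passed, that is 2 members.

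With TAMo against vehicle, which asked the same of the Ly6C-high monocytic cells, Slc7a5 had the largest fall of the tested members (5.77-fold lower), Slc1a5, Slc1a4 and Slc38a2 fell as well, Slc7a1 and Slc38a1 rose by 35.9% and 32.7%, and Slc3a2 fell by 7.57%. In all 5 fell, 2 rose and Slc7a6 did not pass. The background is high here: 86.5% of all genes tested were called, 45.7% higher and 40.7% lower, so a call alone says little about a member. The median log2 change was -0.39 over the 8 tested members and 0.057 over all genes tested. The counts were the same without TAMo replicate 1. Both comparisons share the vehicle libraries, so their values are given side by side and not as independent results.

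**Figure D2:**
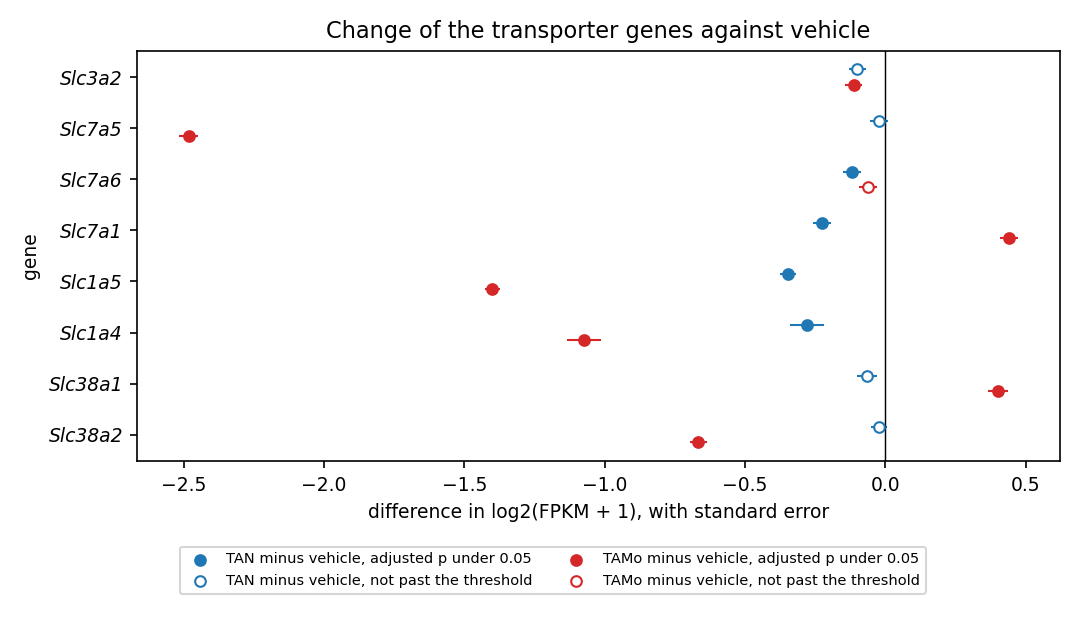
Difference in log2(FPKM + 1) from vehicle for the 8 tested genes, with its standard error, for TAN (blue) and TAMo (red), filled where the limma adjusted p was under 0.05 and open otherwise. All blue points lie between -0.35 and -0.023, while the red ones run from -2.48 for Slc7a5 to 0.44 for Slc7a1.

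Slc7a5, the LAT1 light chain gene (GRCm38 chromosome 8, 121881150 to 121907694, minus strand), was listed at 148 and 146.5 FPKM with vehicle, 146.8 and 143 FPKM with TAN, and 24.9 and 26.1 FPKM with TAMo. The vehicle and TAN libraries overlapped, and both TAMo libraries lay far below them. Against vehicle the log2 change was -0.023 ± 0.033 with TAN (SE, limma adjusted p = 0.671) and -2.48 ± 0.033 with TAMo (adjusted p = 1.288e-09). Of all genes tested, 3.07% had a lower log2 change with TAMo than Slc7a5, 329 in number.

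Slc3a2, the CD98 heavy chain gene (chromosome 19, 8706882 to 8723369, minus strand), was listed at 344.3 and 346.2 FPKM with vehicle, 326.9 and 317.3 FPKM with TAN, and 325.7 and 312.5 FPKM with TAMo. Both co-cultures lay below vehicle without overlap and overlapped each other. The log2 change was -0.10 ± 0.030 with TAN (adjusted p = 0.0576) and -0.11 ± 0.030 with TAMo (adjusted p = 0.00861). The call with TAMo was lost, at a log2 change of -0.016 (adjusted p = 0.640), when libraries were rescaled to one sum without mitochondrial transcripts, and when the filter was dropped (adjusted p = 0.0534). Between TAN and TAMo the log2 difference was 0.014 ± 0.030 (adjusted p = 0.682). Its sign and call depended on the scaling: it was -0.082 (adjusted p = 0.0356) on that rescaling and 0.10 (adjusted p = 0.0140) with median-ratio scaling.

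Slc7a6, the light chain gene of y+LAT2, which exchanges cationic for neutral amino acids (chromosome 8, 106168857 to 106198706, plus strand), was listed at 58.0 and 59.6 FPKM with vehicle, 53.5 and 54.6 FPKM with TAN, and 56.5 and 56.0 FPKM with TAMo. The 3 groups did not overlap, but they lay close together. With TAN it fell by 0.12 ± 0.031 on the log2 scale (adjusted p = 0.0387), a call that did not survive leaving out either vehicle or either TAN library (highest adjusted p 0.176). It was lost, too, when no filter was set (0.0932), when the variance trend was dropped (0.0932) and under quantile normalisation (0.0667). With TAMo the log2 change of -0.063 ± 0.031 did not pass (adjusted p = 0.0958). That value was 0.034 with libraries rescaled without mitochondrial transcripts, and -0.15 with median-ratio scaling, where it passed (adjusted p = 0.0030).

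Slc7a11, the light chain gene of xCT, which imports cystine in exchange for glutamate (chromosome 3, 49892526 to 50443614, minus strand), was listed at 0.180 and 0.197 FPKM with vehicle, 0.222 and 0.199 FPKM with TAN, and 0.0314 and 0.0206 FPKM with TAMo. The gene length behind these values is unstated. At 5805 bases, the shortest length above 1 kb at which all values come near whole reads, they equal 47 and 52 reads with vehicle and 58 and 52 with TAN. With TAMo they equal 8 and 5 reads. Such a match can arise at a wrong length, and a longer gene model, such as the 13922 bases of all merged exons, would raise all of these numbers. The 8 in TAMo replicate 1 may be fewer, since the depth of that library is uncertain. Both TAMo libraries lay below the other 4, 7.27-fold under vehicle in the mean. With no filter on low values the log2(FPKM + 1) difference of TAMo from vehicle was -0.21 ± 0.014 (adjusted p = 0.00136), a scale that understates changes far below 1 FPKM, and that of TAN was 0.026 ± 0.014 (adjusted p = 0.565). This gene is the one printed above with a pair of matches in its promoter.

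The heavy chain is shared by several light chains, of which Slc7a5, Slc7a6, Slc7a7, Slc7a8, Slc7a10 and Slc7a11 were set beside each other on the FPKM scale. Their sum was 207.1 and 207.4 FPKM with vehicle, 202 and 199.5 with TAN, and 82.5 and 82.9 with TAMo. Slc7a5 made up 71.5% and 70.6% of that sum with vehicle and 72.5% and 71.7% with TAN, but 30.2% and 31.5% with TAMo. Slc7a6 took the larger share there, 68.5% and 67.6%, against 26.4% to 28.8% in the other libraries, although its own level was close to that with vehicle. The remaining 4 light chain genes together stayed small, and Slc7a7, the largest of them, held 0.384% to 1.03%. Slc3a2 exceeded Slc7a5 2.33-fold and 2.36-fold with vehicle, 2.23-fold and 2.22-fold with TAN, and 13.1-fold and 12-fold with TAMo. These shares describe transcripts, and no test was made of them.

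**Figure D3:**
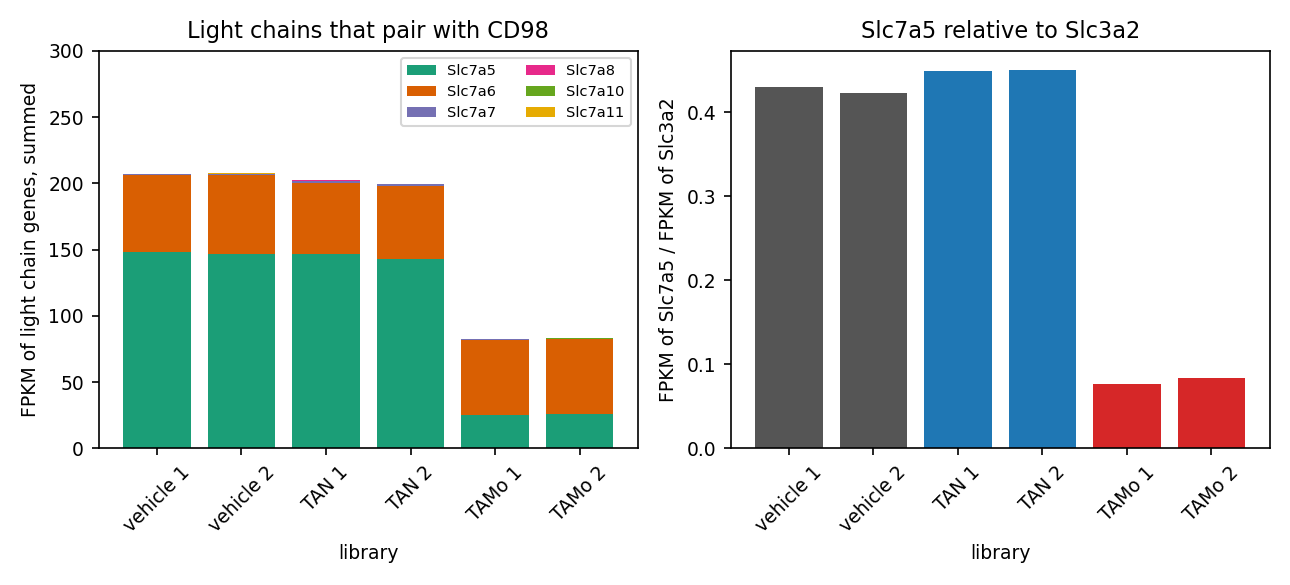
Left, FPKM of the 6 light chain genes stacked for each library; right, FPKM of Slc7a5 divided by that of Slc3a2, with 1 bar per library. The ratio is 0.430 and 0.423 with vehicle, 0.449 and 0.451 with TAN, and 0.0766 and 0.0836 with TAMo.

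Slc7a1, the gene of the arginine and lysine importer CAT1 (chromosome 5, 148327410 to 148399904, minus strand), was listed at 119.8 and 114.3 FPKM with vehicle, 99.1 and 100.8 FPKM with TAN, and 160.5 and 157.6 FPKM with TAMo. TAN lay below and TAMo above vehicle, with no overlap. The log2 change was -0.22 ± 0.032 with TAN (adjusted p = 0.00478, but 0.0629 when the filter was dropped) and 0.44 ± 0.032 with TAMo (adjusted p = 5.815e-06). TAN lay 0.66 ± 0.032 under TAMo on the log2 scale, a difference coded as -0.66 (adjusted p = 5.598e-07). Of all genes tested 66.7% had a lower log2 change with TAMo.

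Slc1a5, the ASCT2 gene (chromosome 7, 16781340 to 16798274, plus strand), was listed at 344.9 and 341.2 FPKM with vehicle, 268.8 and 270.2 FPKM with TAN, and 131.8 and 127 FPKM with TAMo. The 3 groups were apart, TAN between vehicle and TAMo. It fell in both comparisons, with a log2 change of -0.35 ± 0.027 with TAN (adjusted p = 0.000635) and -1.40 ± 0.027 with TAMo (adjusted p = 5.967e-09), and TAN exceeded TAMo by 1.05 ± 0.027 (adjusted p = 2.331e-08). Its fall with TAN was called under each alternative tried, and 3.18% of all genes tested had a lower log2 change there.

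Slc1a4, the gene of ASCT1, a carrier of alanine, serine and cysteine (chromosome 11, 20302180 to 20332713, minus strand), was listed at 10.7 and 10.5 FPKM with vehicle, 8.72 and 8.35 FPKM with TAN, and 4.35 and 4.65 FPKM with TAMo. The order of the groups was that of Slc1a5, again without overlap. Its log2 change was -0.28 ± 0.060 with TAN (adjusted p = 0.0204) and -1.07 ± 0.060 with TAMo (adjusted p = 1.369e-06). The call with TAN did not survive leaving out either vehicle or either TAN library (highest adjusted p 0.115), nor dropping the filter (0.0712).

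Slc38a1 and Slc38a2 encode SNAT1 and SNAT2, sodium-coupled importers of glutamine, alanine and other small neutral amino acids, and lie near each other on chromosome 15, at 96571418 to 96642913 and 96687392 to 96699730 on the minus strand. Slc38a1 was listed at 44.3 and 44.9 FPKM with vehicle, 43.6 and 41.5 FPKM with TAN, and 59.8 and 58.5 FPKM with TAMo. Slc38a2 was listed at 55.2 and 55.5 FPKM with vehicle, 54.3 and 54.5 FPKM with TAN, and 34.7 and 34.3 FPKM with TAMo. The neighbours thus went in opposite directions with TAMo, while vehicle and TAN were close for both. Slc38a1 rose by 0.40 ± 0.036 (adjusted p = 2.043e-05) and Slc38a2 fell by 0.67 ± 0.030 (adjusted p = 3.773e-07) on the log2 scale with TAMo. With TAN the log2 changes were -0.066 ± 0.036 (adjusted p = 0.239) and -0.023 ± 0.030 (adjusted p = 0.636). The FPKM of Slc38a2 divided by that of Slc38a1 was 1.25 and 1.24 with vehicle, 1.25 and 1.31 with TAN, and 0.580 and 0.586 with TAMo.

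Set directly against each other, the co-cultures differed in 6 of the 8 tested members: Slc7a5, Slc1a5, Slc1a4 and Slc38a2 were higher with TAN, Slc7a1 and Slc38a1 were lower, and Slc3a2 and Slc7a6 did not pass. Of all genes tested 86.6% were called in this comparison, 40.6% higher and 46.0% lower with TAN. The log2 difference of Slc7a5 was 2.46 ± 0.033 (adjusted p = 1.362e-09), and 96.8% of all genes tested had a lower value. Summed over the 9 genes, the libraries held 1125 and 1119 FPKM with vehicle, 1002 and 990.6 with TAN, and 798 and 777 with TAMo. With vehicle Slc3a2 made up 30.6% and 30.9% of this sum, and Slc1a5 30.65% and 30.5%. The FPKM of all genes also summed to less with TAMo: 630749 and 629901 with vehicle, 628881 and 628328 with TAN, and 546324 and 548039 with TAMo.

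Of 35 other genes of amino acid transporters at the cell surface, 26 stayed under 1 FPKM in every library and 9 were tested. With TAN 3 fell and 1 rose, and with TAMo 4 fell and 4 rose, with medians of 0.053 and -0.14 on the log2 scale. Over all genes tested 11.0% fell and 9.37% rose with TAN, and 40.7% fell and 45.7% rose with TAMo, so 8 of 9 calls with TAMo is near the 86.5% of all genes. Without 1 vehicle or TAN library, 0 to 1 fell and 0 to 1 rose with TAN: each such library cost Slc6a9 and Slc7a3 the call (adjusted p up to 0.119 and 0.0976), 3 of them cost it Slc7a7 (up to 0.114), and vehicle replicate 2 cost it Slc1a2 (0.0510). Slc6a9, a glycine transporter gene, had 9.55 and 9.06 FPKM with vehicle, 6.55 and 7.33 with TAN, and 0.172 and 0.259 with TAMo, and its log2 change was -0.38 ± 0.082 with TAN (adjusted p = 0.0209) and -3.08 ± 0.082 with TAMo (adjusted p = 2.487e-08). Slc7a3, which like Slc7a1 encodes a cationic amino acid transporter, went the other way from Slc7a1 with TAMo, from 13.3 and 14.0 FPKM with vehicle to 1.17 and 1.02 FPKM (log2 change -2.81 ± 0.069, adjusted p = 1.753e-08). Slc6a6, the taurine transporter gene, was listed at 121 and 123 FPKM with vehicle and at 548 and 525 FPKM with TAMo, a rise of 2.13 ± 0.030 (adjusted p = 1.524e-09), whereas TAN, with a log2 change of 0.096, did not pass (adjusted p = 0.0657). The following were named after their values were seen: Slc7a7, the light chain gene of y+LAT1, rose with TAN, from 0.795 and 1.06 to 1.80 and 1.63 FPKM, and Slc1a2, a glutamate transporter gene, fell with TAN and was listed at 0 with TAMo. Slc43a2, which encodes another carrier of large neutral amino acids, LAT4, had 7.12 and 6.35 FPKM with vehicle and rose to 24.1 and 22.1 FPKM with TAMo, opposite to Slc7a5, while its relative Slc43a1 fell from 2.64 and 2.59 to 0.468 and 0.556 FPKM.

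Carriers of intracellular membranes were counted separately. Of 12 tested genes of a list of mostly lysosomal carriers, 10 rose with TAMo and none fell, with a median of 0.54, beside 45.7% higher calls among all genes tested. Slc15a3, a carrier of histidine and small peptides, rose from 5.47 and 5.48 FPKM to 123 and 124.5 FPKM (log2 change 4.27 ± 0.056, adjusted p = 1.241e-09), Ctns, the lysosomal cystine exporter gene, by 1.31 ± 0.089, and Slc29a3, a carrier of nucleosides rather than amino acids, by 1.25 ± 0.052. With TAN 1 of the 12, Slc15a3, fell by 0.20 (adjusted p = 0.0494) and none rose, and this call was lost under 11 of 16 alternatives, among them 3 of the 4 that left out a vehicle or TAN library (adjusted p up to 0.185). With TAMo the calls of Slc38a7 and Slc15a4 were lost under 11 and 10 of the 16. Of 11 tested mitochondrial carriers, 6 fell and 3 rose with TAMo, near the 86.5% called among all genes tested. Among them were Sfxn3 (2.58 ± 0.064), Slc25a13, an aspartate and glutamate carrier gene (-1.76 ± 0.059), and Slc25a39 (-1.19 ± 0.041). With TAN the glutamate carrier gene Slc25a22 fell by 0.41 ± 0.042 (adjusted p = 0.00131), and Slc25a12 and Slc25a15 rose by 0.28 and 0.25. For Slc25a12 and Slc25a15 each TAN library lay above each vehicle library, a separation whose share over all genes was not counted. Slc25a12 had 20.5 and 19.7 FPKM with TAN and 16.8 and 15.9 with vehicle, and Slc25a15 5.68 and 5.57 against 4.63 and 4.525. Some fits without 1 vehicle or TAN library lost the call of Slc25a12, and all such fits lost that of Slc25a15. Such a fit leaves 1 library in a group, so a lost call does not show that 1 library carried the change. This limit holds for every gene described here as losing its call without 1 library, and it does not make the calls of Slc25a12 and Slc25a15 firmer.

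**Figure D4:**
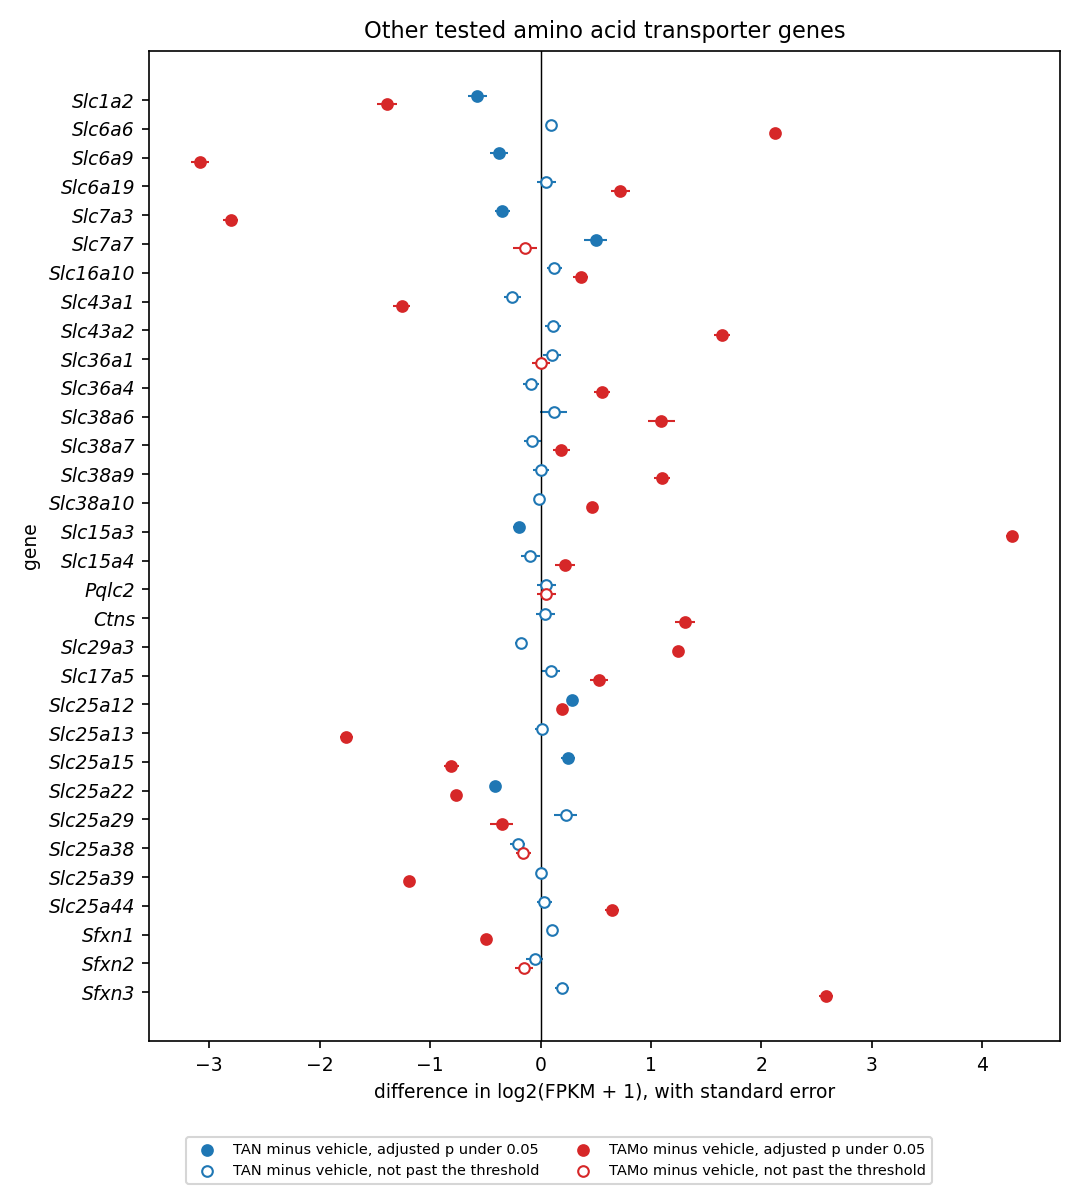
Difference in log2(FPKM + 1) from vehicle, with its standard error, for the 32 tested genes of the lists of other surface, mostly lysosomal and mitochondrial carriers, blue for TAN and red for TAMo, filled where the adjusted p was under 0.05. Red points of the lysosomal group, from Slc36a1 to Slc17a5, lie at or above 0, up to 4.27 for Slc15a3.

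Genes that use the transported amino acids were counted next, to be read against the 86.5% of all genes tested that were called with TAMo (40.7% lower) and the 20.3% called with TAN. Of 18 tested genes of glutamine, leucine and arginine use, 12 fell and 4 rose with TAMo (median -0.67), and 1 fell and 3 rose with TAN (median 0.066), where leaving out 1 vehicle or TAN library gave 0 to 1 and 0 to 2. The 16 of 18 called with TAMo and 4 of 18 with TAN are near those shares. Asns, the asparagine synthetase gene, had 103 and 99.4 FPKM with vehicle, 79.6 and 80.3 with TAN and 4.47 and 5.10 with TAMo. Its log2 change was -0.34 ± 0.055 with TAN (adjusted p = 0.00774, up to 0.0663 without 1 vehicle or TAN library) and -4.14 ± 0.055 with TAMo (adjusted p = 1.241e-09). Gpt2, a mitochondrial alanine transaminase gene, and Psat1, of serine synthesis, fell as well with TAMo (log2 changes -3.14 and -2.70). Of 16 genes of glutathione and cystine use, 8 fell and 4 rose with TAMo, and 1 fell and 1 rose with TAN, a rise lost without any 1 vehicle or TAN library. These 12 and 2 of 16 are no more than the shares of all genes. Cth, whose enzyme makes cysteine inside the cell, fell in both comparisons, with log2 changes of -0.55 ± 0.049 with TAN and -3.38 ± 0.049 with TAMo. Chac1, a glutathione-degrading enzyme gene, and Txn1, of thioredoxin, fell with TAMo (-2.995 and -1.75).

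Of 34 tested genes of amino acid sensing by mTORC1, 18 fell and 13 rose with TAMo (median -0.13), and 5 fell and 1 rose with TAN (median -0.052), but 0 to 2 fell without 1 vehicle or TAN library. The 31 and 6 called of 34 are near the 86.5% and 20.3% of all genes tested. Sesn2, the gene of a leucine sensor that restrains mTORC1, was listed at 21.6 and 19.0 FPKM with vehicle, 16.4 and 17.0 FPKM with TAN, and 111 and 106 FPKM with TAMo. It fell by 0.26 ± 0.060 with TAN (adjusted p = 0.0237, up to 0.122 without 1 library) and rose by 2.36 ± 0.060 with TAMo (adjusted p = 1.957e-08). Its relative Sesn3 rose from 14.3 and 12.8 FPKM with vehicle to 188 and 182 FPKM with TAMo, a log2 change of 3.67 ± 0.059. Bmt2, which encodes the methionine pathway sensor SAMTOR, rose by 1.80 ± 0.060 with TAMo.

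Among 21 tested regulators of transporter genes and of the amino acid response, 10 fell and 2 rose with TAN (median -0.12), and 10 fell and 10 rose with TAMo (median 0.17). Over all genes tested 11.0% fell and 9.37% rose with TAN, and 40.7% fell and 45.7% rose with TAMo. Without 1 vehicle or TAN library 5 to 6 fell with TAN, and each of these libraries cost Atf4 and Arrdc3 the call (adjusted p up to 0.0671 and 0.0980), and 3 of the 4 cost it Hif1a (up to 0.0680). Myc stood at 424 FPKM in the vehicle mean, 353 FPKM in the TAN mean and 294 FPKM in the TAMo mean, with log2 changes of -0.26 ± 0.023 and -0.53 ± 0.023 (adjusted p = 0.000896 and 3.616e-07). Atf4, whose protein is controlled mainly at translation, had a mean of 472 FPKM with vehicle, 424 with TAN and 451 with TAMo (log2 changes -0.15 and -0.065, adjusted p = 0.00776 and 0.0427), and the TAMo value turned to 0.033 (adjusted p = 0.262) on rescaling without mitochondrial transcripts. The TAMo call of Atf4 was lost under 10 of 16 alternatives, among them 3 of the 4 that left out a vehicle or TAMo library (adjusted p up to 0.157). Trib3, a target of ATF4, fell in both, with log2 changes of -0.53 ± 0.058 with TAN and -2.51 ± 0.058 with TAMo, and so did Ddit3, the CHOP gene (-0.63 and -0.77). Atf3 fell by 0.28 with TAN and rose by 1.28 with TAMo. Nfe2l2, the gene of NRF2, which drives Slc7a11, fell by 0.78 ± 0.066 with TAMo (adjusted p = 1.447e-05), and with TAN its log2 change of -0.19 did not pass (adjusted p = 0.0851). Trp53, whose protein represses Slc7a11, rose by 0.17 with TAMo. Of the same list, Keap1 fell by 0.25 with TAMo, and Bach1 did not pass (log2 change 0.17, adjusted p = 0.0771). The part of any of these regulators in the level of Slc7a11 was not tested. Hif1a rose by 0.15 with TAN and by 1.20 with TAMo. Arrdc3 and Txnip, relatives of the arrestins of which Txnip restrains glucose uptake, both fell with TAN (log2 changes -0.30 and -0.46) and rose with TAMo (2.87 and 2.07).

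**Figure D5:**
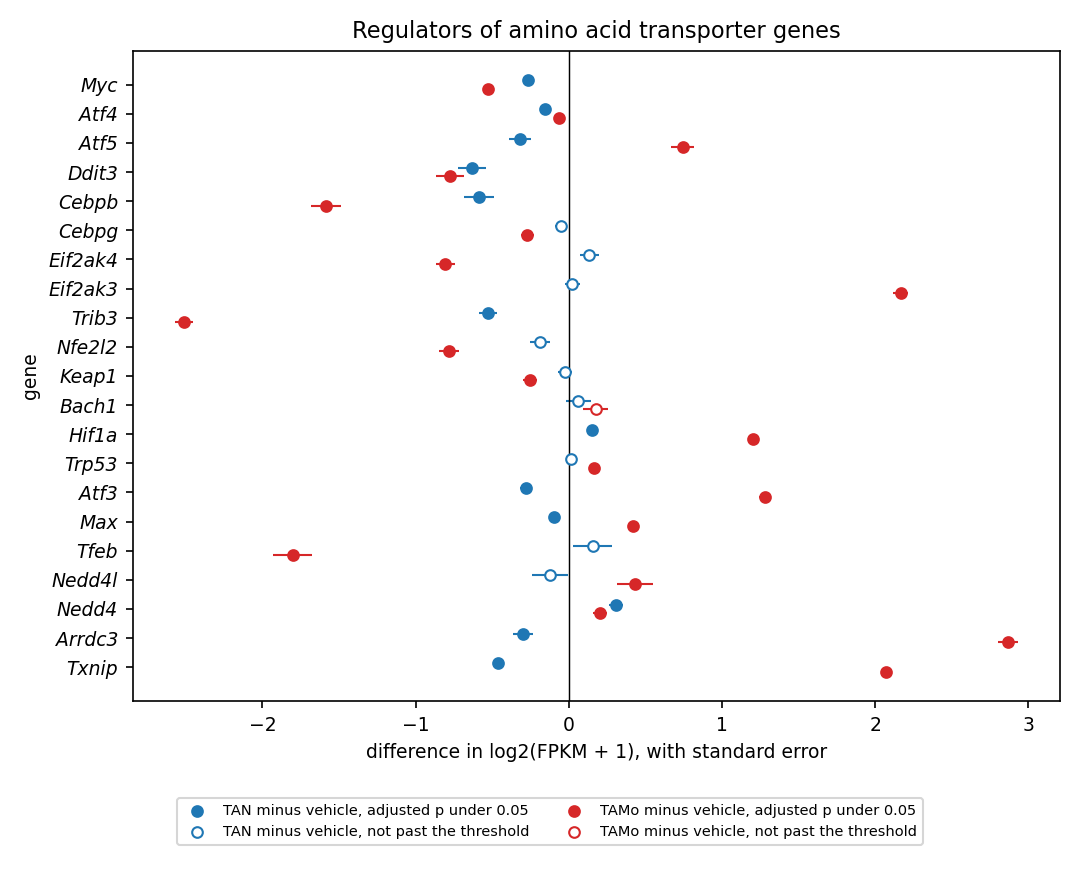
Difference in log2(FPKM + 1) from vehicle, with its standard error, for the 21 tested regulators, blue for TAN and red for TAMo, filled where the adjusted p was under 0.05. Myc, Ddit3, Cebpb and Trib3 lie left of 0 in both comparisons, while Arrdc3, Txnip, Atf3 and Atf5 lie left of 0 with TAN and right of it with TAMo.

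Likeness of pattern was measured as the Euclidean distance between log2(FPKM + 1) values centred on the gene mean over the 6 libraries, among genes with a mean of at least 5 FPKM, 8320 besides the gene itself. Nearest to Slc7a5 were Ube2t (distance 0.0675), Prim2, a DNA primase subunit gene (0.0689), and Setd6 (0.0813). Of the other members Slc1a5 came 883rd in that order, Slc1a4 1330th and Slc38a2 1923rd, while Slc3a2, whose product pairs with that of Slc7a5, came 3794th. Nearest to Slc1a5 were Herpud1, of the response to unfolded proteins (0.0889), Apoe (0.0973) and Arid5a (0.0993), with Slc1a4 in place 266. Slc7a11 lay below the level needed. With 6 libraries the distances mostly reflect the step between TAMo and the other groups.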

How the data were processed

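RNA of OT-I cells was sequenced in 6 libraries, 2 per group. Groups and replicate numbers come from the labels. The authors deposited FPKM per gene and library. Tools named in the submitters' processing notes are HISAT2 2.0.5, featureCounts 1.5.0-p3 and CASAVA, and the build is mm10; their roles are not stated. Annotation, strandedness and gene lengths are unstated too. No exon of the 9 genes overlaps one of another gene in GENCODE mouse release 21 (GRCm38, the assembly of mm10), from which coordinates were taken.

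A gene was tested if 2 or more of the 6 libraries reached 1 FPKM, which held for 10727 of 25638, on log2(FPKM + 1). A limma 3.58.1 model (R 4.3.3) with a variance trend over all 6 libraries gave the 3 comparisons, with 3 residual and 4.07 prior degrees of freedom, two-sided. The call was an adjusted p under 0.05 (Benjamini-Hochberg over all genes tested). The script was tested on simulated data. A fold is the ratio of mean FPKM. A value after ± is a standard error. Depth came from whole multiples in low values (tolerance 0.1) of 7708 genes with 1 annotated transcript, 98.8% to 99.0% of which were whole.

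The 9 genes and the lists were chosen with earlier results of these data known. Beyond the 9, up to 3 called genes with the largest change and at least 5 FPKM were named per list and comparison with vehicle, and regulators and markers freely. Same-numbered libraries did not deviate together across genes (correlations 0.0078 to 0.057), so replicate numbers were left out of the model. Alternatives were other pseudocounts, filters, scalings and variance priors, the 2 groups alone, a replicate block and leaving out each library.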

Additional observations from a re-analysis of the deposited data

How the results depend on the processing

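Each member's log2 change was recomputed under 16 alternatives, which gave 384 values over the 3 comparisons. Of these 355 kept their direction and side of the threshold, 15 lost the call, 8 gained one and 6 turned sign. The sign turned only in values near 0: for Slc3a2 between TAN and TAMo with libraries rescaled without mitochondrial transcripts (-0.082), with quantile normalisation (-0.054), without TAMo replicate 2 (-0.016) and without TAN replicate 1 (-0.0077; the range without 1 library was -0.016 to 0.043), and for Slc7a6 with TAMo against vehicle on rescaling (0.034) and between TAN and TAMo with median-ratio scaling (0.032). The cause was not tested. With rescaling, 4 members were lower with TAN than with TAMo in place of 2. With no filter on low values, 1 member (Slc1a5) was lower with TAN against vehicle in place of 4, and 746 genes were called in place of 2180. Without 1 library at a time, 2 to 5 members were called lower with TAN against vehicle, and 725 to 2574 genes were called, with 725 and 829 without vehicle replicate 1 and 2 and 823 and 730 without TAN replicate 1 and 2. For TAMo against vehicle the ranges were 5 to 5 members lower, 2 to 2 higher and 8819 to 9189 genes, and between TAN and TAMo 4 to 4 higher, 2 to 2 lower and 8827 to 9238 genes. Of the gene lists, with no filter on low values 4 regulators, 1 mTORC1 gene and 1 other surface carrier were lower with TAN in place of 10, 5 and 3, and 1 gene of glutamine use was higher in place of 3. With a mean of at least 5 FPKM, which tests fewer genes, 5 lysosomal carriers rose with TAMo in place of 10.

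With the replicate number as a block, 2140 genes were called for TAN against vehicle, 9282 for TAMo against vehicle and 9300 between TAN and TAMo, and the block changed the call of 1 member, Slc3a2 with TAN (adjusted p = 0.0417). Fitting only vehicle and TAN gave a pass for it too (0.0209), as did other settings: it passed with quantile normalisation (0.0202) and without TAMo replicate 1 or 2 (0.0203 and 0.0202 in that order). Depth limits Slc7a11, which lies far below 1 FPKM in the TAMo libraries and whose read numbers are not established.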
